A study of Homo sapiens with 41 samples.

Results

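The occupancy of mitochondrial ribosomal protein (MRP) genes by Elongin A is described here in DLD1 cells, a human colorectal cancer cell line. They were taken as every protein-coding gene of the human annotation whose symbol is MRPL or MRPS followed by a number and, where present, a letter, which gave 78 of 20149 protein-coding genes. Of these, 49 carry MRPL symbols and 29 carry MRPS symbols. Elongin A was mapped by 2 methods in cells that were fixed with formaldehyde and carried no knockdown. In CUT&RUN, an antibody directs a nuclease to cut and release the DNA around the bound protein, and in ChIP-seq, sheared chromatin is precipitated with the antibody. There are 3 peak lists, 1 from CUT&RUN with a goat antibody to Elongin A (2 replicates, with goat IgG as control), 1 from CUT&RUN with a mouse antibody (1 sample, with mouse IgG as control) and 1 from ChIP-seq (1 sample, with input DNA as control). The goat antibody replicates stand behind a single list, so no value below has a replicate error. The depth is unknown, since the lists come without read totals. The series holds 41 samples, and its RNA-seq, 4sU-seq and RNA polymerase ChIP-seq samples were not analysed here.

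Mitochondrial ribosomes translate the small set of proteins encoded by mitochondrial DNA, all of them components of the oxidative phosphorylation complexes. Their RNA components are transcribed inside the organelle, but each of their proteins is encoded in the nucleus, transcribed by RNA polymerase II, made in the cytosol and imported. MRP genes are therefore ordinary RNA polymerase II genes whose products meet in one complex, like the genes of the cytosolic ribosomal proteins. Elongin A is the largest subunit of the Elongin complex, which stimulates elongation by RNA polymerase II in vitro and also serves in a ubiquitin ligase.

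Most MRP genes had no Elongin A peak. A gene was counted when at least 1 bp of a peak lay within it or within 1 kb of either end. By this measure, 14 MRP genes had a peak in the goat antibody list, 5 in the mouse antibody list and 2 in the ChIP-seq list, and 59 had none in any list. The 14 genes with a goat antibody peak were 17.9% of the 78 (95% Wilson interval 11% to 27.9%), whereas 21.7% of all protein-coding genes had 1. MRP genes are short, with a median length of 11.9 kb against 27.3 kb for the other protein-coding genes, and a longer gene has more room for a peak. When the other genes were weighted to the lengths of the MRP genes in 5 classes, their share was 17.3%, which left a difference of 0.649 percentage points and lay inside the interval. Wilson intervals cover counting error only, and genes are not replicates of an experiment.

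The mouse antibody list gave the same picture at a lower level. The 5 MRP genes were 6.41% of the 78 (2.77% to 14.1%), beside 7.79% of all protein-coding genes and a length-weighted 6.04% of the others. In the ChIP-seq list, which is far smaller with 186 peaks, the 2 MRP genes were 2.56% (0.706% to 8.88%), beside 0.784% of all protein-coding genes and a length-weighted 0.755% of the others. That weighted share also lay inside the interval, though near its lower end. MRP genes thus had peaks at about the rate of other genes of their length in both CUT&RUN lists, and the ChIP-seq value rests on 2 genes. The other genes were matched on length only and include genes of any expression level. The paper reports that Elongin A enrichment tended to be stronger at more highly expressed genes. How MRP genes compare with genes of like expression was not tested.

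The length classes showed how few genes stand behind these shares. In the goat antibody list, 3 of 21 MRP genes under 5 kb had a peak (14.3%, others 10.1%), 2 of 14 between 5 and 10 kb (14.3%, others 15%), 3 of 21 between 10 and 20 kb (14.3%, others 17.3%), 3 of 12 between 20 and 50 kb (25%, others 20.2%) and 3 of 10 of 50 kb and over (30%, others 32.2%). The MRP share was the same in the 3 classes under 20 kb and higher in the 2 longer classes, each value resting on 2 or 3 genes with a peak, whereas the share of the others rose from class to class. In the mouse antibody list, 3 of the 5 genes lay in the class from 5 to 10 kb, where they were 21.4% of 14 MRP genes against 4.98% of the others. None of 33 MRP genes from 10 to 50 kb had a peak, beside low shares of the others (5.84% from 10 to 20 kb and 7.22% from 20 to 50 kb).

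**Figure D1:**
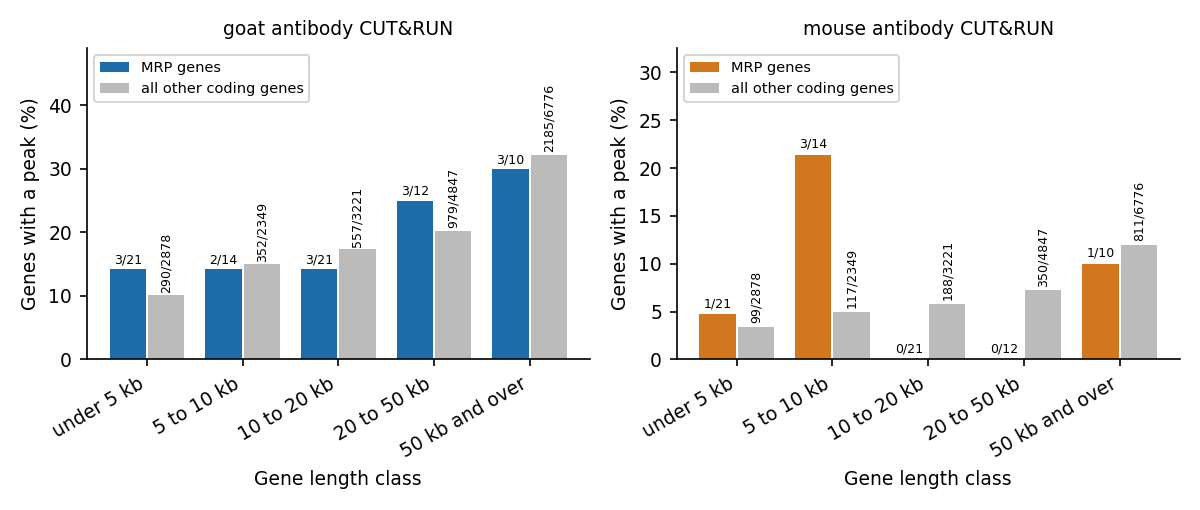
Share of genes with at least 1 peak (vertical axis, percent) by class of gene length (horizontal axis), with MRP genes in colour, all other protein-coding genes in grey, and the numbers of genes above each bar. In the goat antibody panel both shares are higher in the longest class (30% and 32.2%) than in the shortest (14.3% and 10.1%), whereas the mouse antibody panel has 3 of its 5 MRP genes in the class from 5 to 10 kb.

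Promoters were examined in the window from 1000 bp before to 100 bp after any annotated transcription start site (TSS), which had to contain the centre of a peak. In the goat antibody list, 8 MRP genes (10.3%, 5.29% to 19.0%) had such a promoter peak, beside 8.97% of all protein-coding genes and a length-weighted 8.77% of the others. Only 4 of the 8 remained when the start of the Ensembl canonical transcript alone was used, so the count depends on how starts are defined. In the mouse antibody list, 4 MRP genes (5.13%, 2.01% to 12.5%) had a promoter peak, beside 2.92% of all protein-coding genes and a length-weighted 2.81% of the others. Both ChIP-seq peaks at MRP genes were promoter peaks (2.56%, 0.706% to 8.88%), beside 0.533% of the other genes and a length-weighted 0.467%, which lay below that interval. This value rests on the same 2 genes.

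Cytosolic ribosomal protein genes and nuclear genes of oxidative phosphorylation were the closest groups for comparison. Of 79 cytosolic ribosomal protein genes, 65 (82.3%, 72.4% to 89.1%) had a goat antibody peak, although their median length of 5.55 kb is less than that of MRP genes. Their interval lies wholly above that of the MRP genes. In the mouse antibody list 19 of them (24.1%, 16% to 34.5%) had a peak, again above the MRP interval, and in ChIP-seq 1 (1.27%) had a peak. Of 78 nuclear oxidative phosphorylation genes, whose products form the complexes that mitochondrial ribosomes help to build, 18 (23.1%, 15.1% to 33.6%) had a goat antibody peak, 4 (5.13%) a mouse antibody peak and none a ChIP-seq peak. The oxidative phosphorylation and MRP intervals overlap over most of their width in both CUT&RUN lists. Neither group was matched to the MRP genes on expression.

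**Figure D2:**
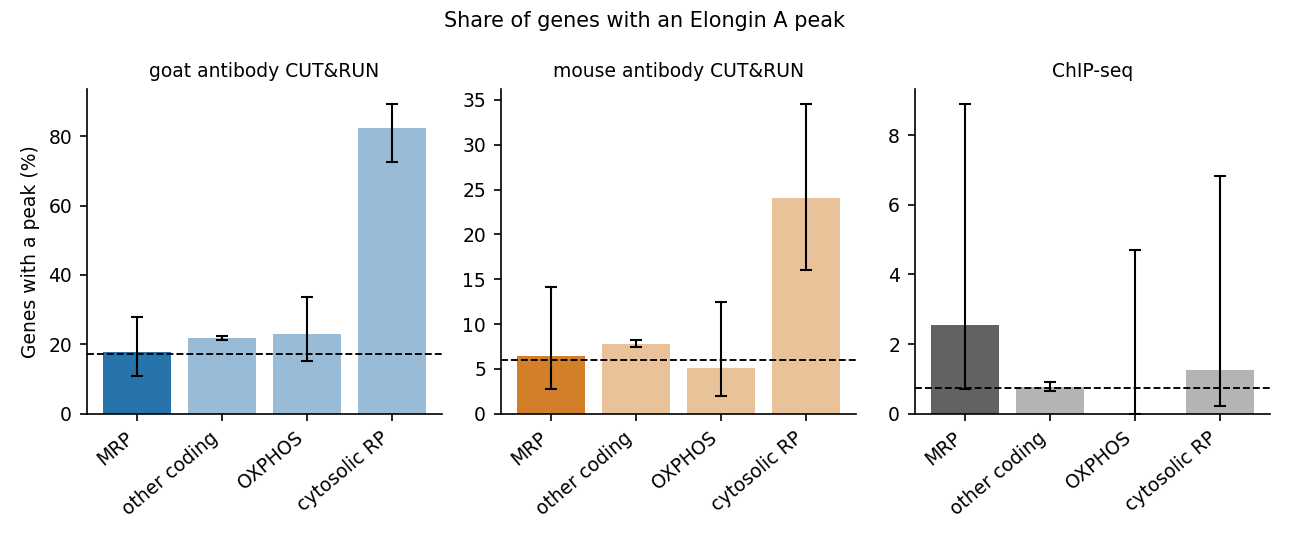
Share of genes with at least 1 Elongin A peak (percent) in each gene group and peak list, with 95% Wilson intervals that cover counting error only and a dashed line at the share of other genes weighted to MRP lengths. OXPHOS is oxidative phosphorylation and RP ribosomal protein. In the goat antibody list MRP genes (17.9%) sit near all other protein-coding genes (21.7%), and cytosolic ribosomal protein genes (82.3%) stand above both.

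Large and small subunit symbols were also counted apart. In the goat antibody list 8 of 49 MRPL genes (16.3%, 8.51% to 29.0%) and 6 of 29 MRPS genes (20.7%, 9.85% to 38.4%) had a peak. In the mouse antibody list it was 2 of 49 MRPL genes (4.08%, 1.13% to 13.7%) and 3 of 29 MRPS genes (10.3%, 3.58% to 26.4%). Both ChIP-seq peaks were at MRPS genes (6.90%, 1.91% to 22%), and none of the 49 MRPL genes had 1 (upper limit 7.27%). Genes on a list of proteins with a bacterial counterpart had a goat antibody peak in 6 of 46 cases (13.0%, 6.12% to 25.7%). The MRP genes outside that list had 1 in 8 of 32 cases (25%, 13.3% to 42.1%). The second class is defined only by absence from the list, so it is not a checked set of proteins particular to mitochondrial ribosomes. The intervals overlapped in each of these splits.

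MRPL54 held the most enriched goat antibody peak of any MRP gene. MRPL54 encodes a large subunit protein with no bacterial counterpart. Its goat antibody peak (chr19:3762311-3763297, hg19, 987 bp) had a fold enrichment over the control of 13.1 and a −log10 q-value of 63.2, and ranked 28 among 8720 peaks. Its summit lay in exon 1, 64 bp downstream of the canonical start, and the peak also reached the window of the neighbouring gene APBA3, which is transcribed in the opposite direction. No mouse antibody peak lay at the gene, and the nearest mouse antibody summit was 200082 bp away.

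The next goat antibody peaks were much lower, with fold enrichments between 5.02 and 6.34. MRPS35, which encodes a small subunit protein, had a fold enrichment of 6.34 at chr12:27904824-27905092, in intron 7 and 41192 bp from its start. MRPS22, mutations of which cause mitochondrial disease, was the only MRP gene with more than 1 goat antibody peak. Its stronger peak (chr3:139062870-139063096) had a fold enrichment of 5.77 and a summit in exon 1, 79 bp downstream of the canonical start, and its weaker peak (chr3:139072677-139073007) had a fold enrichment of 4.47 in intron 6, inside the overlapping gene COPB2. The annotated span of MRPS22 is 355 kb, but its canonical transcript covers 13.1 kb, and both peaks lay within the latter.

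MRPL12 is the counterpart of the bacterial stalk protein that helps to recruit translation factors. Its peak (chr17:79669296-79670353, 1058 bp) had a fold enrichment of 5.57 and a summit 168 bp upstream of its start, and overlapped the window of HGS. MRPL34, a small protein with a bacterial counterpart, had a fold enrichment of 5.03 at chr19:17416392-17417084, with a summit 171 bp upstream of its canonical start and inside ABHD8. MRPS18C is a human relative of bacterial S18, and its peak (chr4:84376801-84377177, fold enrichment 5.02) lay 260 bp upstream of its start but 25 bp downstream of the start of HELQ, a DNA helicase gene. All 3 of these peaks therefore also lay in, or within 1 kb of, another protein-coding gene.

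The starts of the 6 MRP genes with the highest goat antibody fold enrichment and a summit from 1000 bp before to 100 bp after the canonical start are shown, since goat antibody signal was called at or beside them. The peak centre at MRPL54 lay beyond that window, so MRPL54 is not among the 8 genes with a promoter peak above. Each is the hg19 sequence on the strand of the gene from 250 bases before to 30 bases after its canonical start, in lower case, with exact matches to the searched motifs in capitals on either strand. The MRPL54 stretch is chr19:3762430-3762709 (plus strand), and the capitals mark TATAAA far from the start. The MRPS22 stretch is chr3:139062612-139062891 (plus strand), and the capitals mark CCGGAAGT, an ETS family motif, in its reverse complement at a pair of places. The MRPL12 stretch is chr17:79670147-79670426 and the MRPL34 stretch chr19:17416431-17416710 (both plus strand), and neither has a match. The MRPS18C stretch, chr4:84376977-84377240 (plus strand), is cut to 264 bases where an exon of the neighbouring gene begins and has 1 match to GCATGCGC, the core of the NRF1 motif. The MRPS18B stretch, chr6:30585367-30585646 (plus strand), has 1 match to the same NRF1 core, while its YY1 match, given further on, runs past the printed end.
MRPL54: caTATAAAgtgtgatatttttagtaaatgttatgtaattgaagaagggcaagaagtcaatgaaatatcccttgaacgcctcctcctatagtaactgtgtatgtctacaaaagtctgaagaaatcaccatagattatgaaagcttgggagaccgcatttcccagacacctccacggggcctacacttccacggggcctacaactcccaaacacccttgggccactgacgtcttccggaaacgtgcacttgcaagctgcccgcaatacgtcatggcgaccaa
MRPS22: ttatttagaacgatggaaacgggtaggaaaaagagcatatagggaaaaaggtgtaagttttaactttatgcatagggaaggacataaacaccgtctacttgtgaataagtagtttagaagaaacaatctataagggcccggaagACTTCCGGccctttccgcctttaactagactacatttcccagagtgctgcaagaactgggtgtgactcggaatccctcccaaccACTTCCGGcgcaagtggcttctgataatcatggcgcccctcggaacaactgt
MRPL12: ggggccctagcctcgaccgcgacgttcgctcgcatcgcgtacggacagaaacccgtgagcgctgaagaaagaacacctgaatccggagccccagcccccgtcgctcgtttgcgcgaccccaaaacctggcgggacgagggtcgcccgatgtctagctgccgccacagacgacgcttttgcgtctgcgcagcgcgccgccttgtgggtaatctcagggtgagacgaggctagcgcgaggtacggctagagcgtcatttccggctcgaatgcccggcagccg
MRPL34: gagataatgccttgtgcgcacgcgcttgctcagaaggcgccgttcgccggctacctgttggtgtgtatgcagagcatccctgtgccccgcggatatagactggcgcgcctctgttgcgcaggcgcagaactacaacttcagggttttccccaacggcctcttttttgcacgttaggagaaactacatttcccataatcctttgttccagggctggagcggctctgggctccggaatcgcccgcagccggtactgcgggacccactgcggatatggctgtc
MRPS18C: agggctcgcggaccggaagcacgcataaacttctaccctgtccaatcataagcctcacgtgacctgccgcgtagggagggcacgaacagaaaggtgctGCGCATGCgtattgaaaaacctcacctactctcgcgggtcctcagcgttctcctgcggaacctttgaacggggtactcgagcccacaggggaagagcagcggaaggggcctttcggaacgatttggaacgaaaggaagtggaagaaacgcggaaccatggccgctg
MRPS18B: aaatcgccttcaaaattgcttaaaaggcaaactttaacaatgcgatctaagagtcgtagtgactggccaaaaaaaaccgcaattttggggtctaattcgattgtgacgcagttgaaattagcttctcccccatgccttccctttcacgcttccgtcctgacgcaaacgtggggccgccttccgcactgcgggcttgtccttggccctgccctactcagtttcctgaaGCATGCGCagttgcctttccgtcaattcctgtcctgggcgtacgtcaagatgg
The summits at MRPL54 and MRPS22 lay just past the end of these stretches, those at MRPL12, MRPL34 and MRPS18B within them and that at MRPS18C just before its stretch. A match is a description of letters and not of a bound factor.

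The remaining goat antibody peaks at MRP genes had fold enrichments of 4.71 or less. MRPS27, a small subunit protein of the pentatricopeptide repeat type, had a fold enrichment of 4.71 in intron 4, 37517 bp from its start (chr5:71578503-71578811). MRPL43 had 4.05 at a summit beyond its canonical transcript and inside SEMA4G, 1923 bp from a start of the latter. MRPL22, the counterpart of a bacterial protein at the nascent peptide tunnel, had 3.71 in intron 2, 312 bp from its start. MRPL51 had 3.04 at a summit 874 bp upstream of its own start but 34 bp downstream of the start of NCAPD2, a condensin subunit gene. MRPL16 had 2.89 in intron 1, 214 bp from its start, and MRPL42 had the lowest value, 2.74, in intron 4 with a −log10 q-value of 1.32. The 32 bp around the MRPL42 summit occur 2 times in the genome, whereas those of the other summits at MRP genes occur 1 time.

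MRPS18B and MRPS28 were the 2 MRP genes with a peak in both CUT&RUN lists. MRPS18B, another relative of bacterial S18, had a goat antibody peak at chr6:30585143-30585545 with a fold enrichment of 4.04 and a −log10 q-value of 13.1, and a mouse antibody peak at chr6:30585370-30585828 with 2.88 and 2.58. The summits were 22 bp apart and lay 210 and 232 bp upstream of the start, inside the divergent gene PPP1R10, which encodes a regulatory subunit of a nuclear phosphatase. MRPS28 encodes a small subunit protein. It had a goat antibody fold enrichment of 3.93 (−log10 q-value 7.84) and a mouse antibody fold enrichment of 5.39 (7.51), with summits 1 bp apart, 451 and 450 bp downstream of its start in intron 1, which a readthrough gene also covers. In both genes the goat antibody q-value was smaller than at most MRP genes of higher fold enrichment.

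The other mouse antibody peaks had no goat antibody peak at the same gene. MRPS34, which encodes a small subunit protein, had the highest fold enrichment, 6.37 at chr16:1823748-1824210, ranked 107 of 2338, with a summit 979 bp upstream of its start and inside EME2. MRPL2, the counterpart of a bacterial protein close to the peptidyl transferase centre, had 4.82 at chr6:43027378-43027842, 228 bp upstream of its own start and 31 bp downstream of that of KLC4. MRPL49 also had 4.82, in intron 1 and 191 bp from its start (chr11:64889826-64890041), with SYVN1 at the summit and the window of the cytosolic ribosomal protein gene FAU reached by the peak. The nearest goat antibody summits to these 3 were 8611, 33132 and 4726 bp away. Each of the 5 mouse antibody peaks at MRP genes thus also reached the window of another protein-coding gene, the readthrough gene at MRPS28 included.

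**Figure D3:**
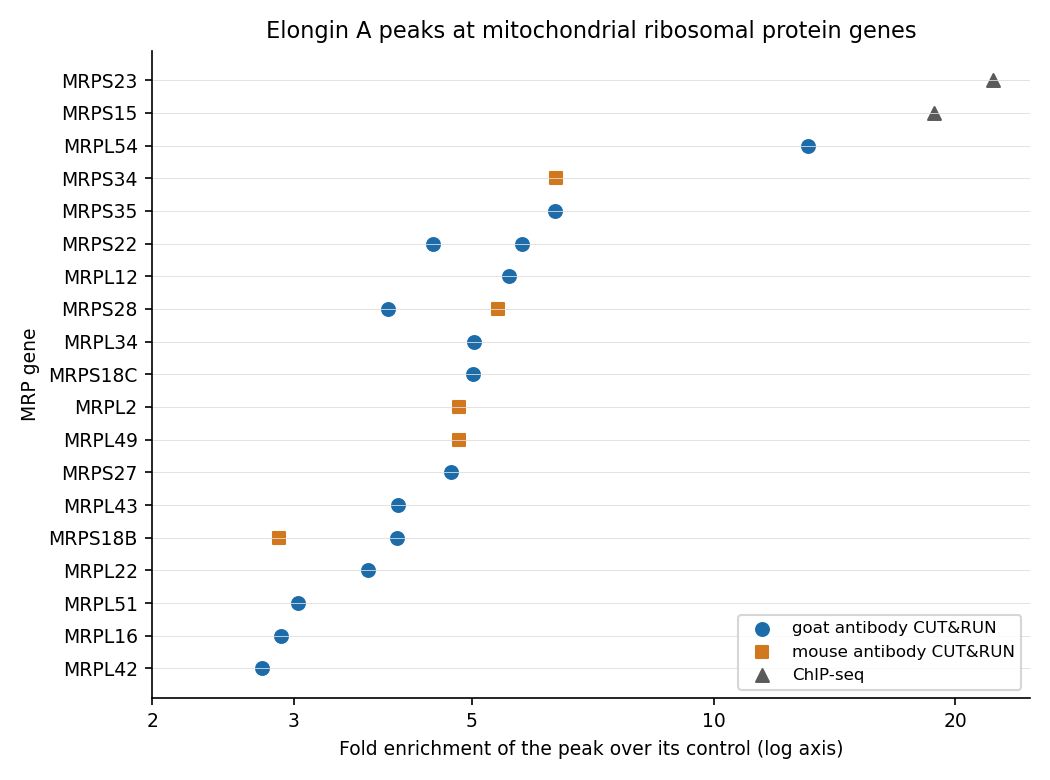
Fold enrichment over control of every peak at an MRP gene (horizontal axis, logarithmic), by gene (vertical axis) and by peak list (colour), with values set by separate controls and so comparable only within a list. MRPL54 stands alone in the goat antibody list at 13.1, and the ChIP-seq peaks of MRPS23 and MRPS15 lie at 22.3 and 18.8.

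The ChIP-seq peaks at MRP genes lay at starts with no CUT&RUN peak. MRPS23, which encodes a small subunit protein, had a fold enrichment of 22.3 and a −log10 q-value of 84.4 at chr17:55927289-55927740, with a summit 87 bp upstream of its canonical start and rank 22 of 186. MRPS15, the counterpart of a bacterial protein that binds the small ribosomal RNA, had a fold enrichment of 18.8 and a −log10 q-value of 109 at chr1:36929782-36930158, with a summit 2 bp upstream of its start and rank 29. Neither peak reached the window of another protein-coding gene. The nearest goat antibody summit was 11045 bp from that of MRPS23 and 78006 bp from that of MRPS15. Both values exceed the list's median fold enrichment of 9.99.

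The starts of these 2 genes are shown because both summits fall inside them. Both are hg19 sequences on the minus strand, from 250 bases before to 30 bases after the canonical start, at chr17:55927376-55927655 for MRPS23 and chr1:36929956-36930235 for MRPS15. Capitals mark the 1 motif match, TATAAA in its reverse complement at MRPS15, and MRPS23 has none.
MRPS23: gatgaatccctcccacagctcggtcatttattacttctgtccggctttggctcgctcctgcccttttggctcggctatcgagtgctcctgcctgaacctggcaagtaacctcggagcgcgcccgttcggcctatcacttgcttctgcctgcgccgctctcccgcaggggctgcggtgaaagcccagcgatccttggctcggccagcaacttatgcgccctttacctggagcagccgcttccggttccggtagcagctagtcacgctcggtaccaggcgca
MRPS15: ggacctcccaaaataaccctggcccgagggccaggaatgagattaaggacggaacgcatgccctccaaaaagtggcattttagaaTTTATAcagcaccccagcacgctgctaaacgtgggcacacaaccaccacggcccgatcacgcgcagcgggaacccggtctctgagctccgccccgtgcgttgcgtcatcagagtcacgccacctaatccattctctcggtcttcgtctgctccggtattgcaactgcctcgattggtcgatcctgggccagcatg

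Over all of them, the goat antibody list had 15 peaks at MRP genes, which was 0.172% of its 8720 peaks. Of their summits, 10 of 15 lay within 1 kb of the canonical start of the MRP gene, 5 upstream and 5 downstream, and the other 5 farther downstream. The same share of peaks was not counted at other genes, which are longer at the median, so it is not a trait particular to MRP genes. For 4 of the 15, the nearest start belonged to another gene (KLHL42, HELQ, SEMA4G and NCAPD2). The highest fold enrichment per gene had a median of 4.38 in the 14 MRP genes, with a range of 2.74 to 13.1, and of 4.66 in the other protein-coding genes with a peak. In 8 of the 15 peaks the fold enrichment was above the list's median of 4.32, and in 10 the q-value was under 0.001. The median width was 377 bp at MRP genes and 362 bp in the whole list. By height and width, the goat antibody peaks at MRP genes were thus close to the typical peak, MRPL54 apart. The 5 mouse antibody peaks had a median highest fold enrichment of 4.82, beside 4.48 in other genes, and the 2 ChIP-seq peaks 20.6, beside 11.7.

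**Figure D4:**
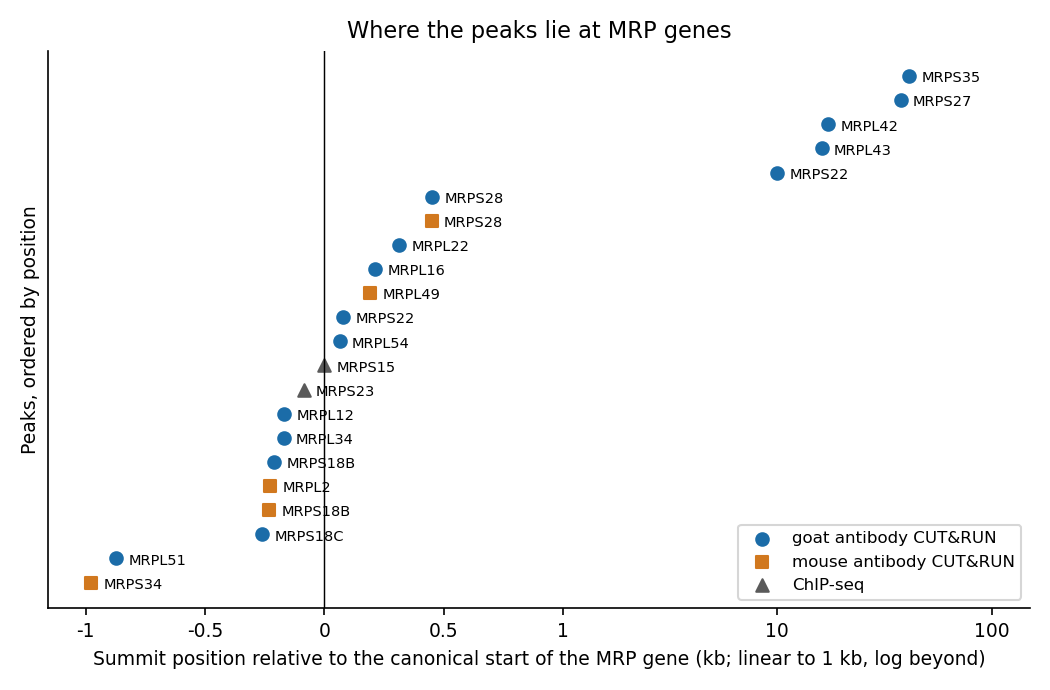
Position of each peak summit relative to the canonical start of its MRP gene (horizontal axis, kb, positive downstream, linear to 1 kb and logarithmic beyond), with peaks stacked in order of position and coloured by peak list. Of the 15 goat antibody summits, 10 lie within 1 kb of the start, as do all 5 mouse antibody and both ChIP-seq summits.

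Agreement between the antibodies at MRP genes was limited to 2 genes. Of the 14 MRP genes with a goat antibody peak, 2 (14.3%) also had a mouse antibody peak, and of the 5 with a mouse antibody peak those 2 are 40%. Among the other protein-coding genes the same shares were 21.9% and 61.0%. These shares were not weighted for length, and the other genes are longer, with more room for a peak of each list. Of the 64 MRP genes without a goat antibody peak, 3 (4.69%) had a mouse antibody peak, beside 3.89% of the others. No MRP gene had a peak in all 3 lists.

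Goat antibody summits lay nearer to MRP starts than to the starts of other genes. The distance from the canonical start to the nearest goat antibody summit had a median of 49.7 kb in MRP genes (quartiles 14.8 and 169 kb) and 88.7 kb in the other protein-coding genes (24.4 and 236 kb). A summit lay within 1 kb of the start in 10 MRP genes (12.8%, others 8.24%), within 10 kb in 18 (23.1%, others 16.2%) and within 50 kb in 39 (50.0%, others 37%). MRP genes also lay among more genes, as described next, and the part of gene density in these distances was not tested.

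MRP genes frequently had the start of an oppositely transcribed gene close to their own. A protein-coding gene transcribed in the opposite direction started within 1 kb of the canonical start of 27 MRP genes (34.6%), beside 9.86% of the other protein-coding genes. Starts on either side were counted, so overlapping pairs are included, such as MRPS34 with EME2, which starts downstream of the MRPS34 start. Of those 27, 6 (22.2%) had a goat antibody peak, whereas among other genes with such a partner 29.3% did. Of the 51 MRP genes without one, 8 (15.7%) had a goat antibody peak, beside 20.9% of other such genes. Another protein-coding gene lay within the window of 51 MRP genes (65.4%, others 45.9%). Of the 27 whose window held no other protein-coding gene, 3 (11.1%) had a goat antibody peak. None of these 27 had a mouse antibody peak, and 2 (7.41%) had a ChIP-seq peak. The other genes alone in their windows had 18.4%, 6.83% and 0.525%, or 14.0%, 5.32% and 0.509% when weighted to MRP lengths. The shares by oppositely transcribed partner were not weighted for length. At MRP genes, 9 of the 15 goat antibody peaks and all 5 mouse antibody peaks also reached the window of another protein-coding gene. These peaks could not be assigned to the MRP gene rather than to a neighbour.

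The promoters of MRP genes were also searched for motifs known from housekeeping and mitochondrial genes. From 250 bp before to 50 bp after the canonical start, the YY1 motif AAGATGGCG was found on either strand in 13 MRP promoters (16.7%), beside 2.82% of all 20136 protein-coding promoters. YY1 is a zinc finger factor that binds near the start of many housekeeping genes. The 13 genes were MRPL22, MRPL32, MRPL36, MRPL38, MRPL42, MRPL46, MRPL50, MRPL52, MRPS10, MRPS18A, MRPS18B, MRPS24 and MRPS30. The ETS motif CCGGAAGT was found in 12 (15.4%, all promoters 6.10%) and the NRF1 core GCATGCGC in 7 (8.97%, all promoters 4.26%). NRF1 and the ETS family factor GABP are textbook regulators of nuclear genes for mitochondrial proteins. TATAAA was found in 4 (5.13%, all promoters 9.81%), and the cAMP response element TGACGTCA in 1, MRPL4 (1.28%, all promoters 2.68%). The median GC content was 59.7% in MRP promoters and 63.7% in all promoters.

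Motif content was set beside occupancy. Among the 14 MRP genes with a goat antibody peak, 3 had the ETS motif (MRPL16, MRPL51 and MRPS22), 3 the NRF1 core (MRPL22, MRPS18B and MRPS18C) and 3 the YY1 motif (MRPL22, MRPL42 and MRPS18B), which is 21.4% for each. Among the 64 without, the shares were 14.1%, 6.25% and 15.6%. Among the other protein-coding genes, the ETS motif was found in 7.68% with and 5.61% without a goat antibody peak, the NRF1 core in 5.41% and 3.92% and the YY1 motif in 3.94% and 2.43%, so the direction was the same there for these 3 motifs. It was opposite for the rest. TATAAA was found in 7.14% of MRP promoters with and 4.69% without a peak (others 7.24% and 10.5%). For TGACGTCA the shares were 0.00% and 1.56% (others 3.62% and 2.42%). The median GC content was 58.0% and 61.3% (others 65.7% and 63.0%). With at most 3 genes with a peak behind each share, the differences in MRP genes rest on very few promoters.

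**Figure D5:**
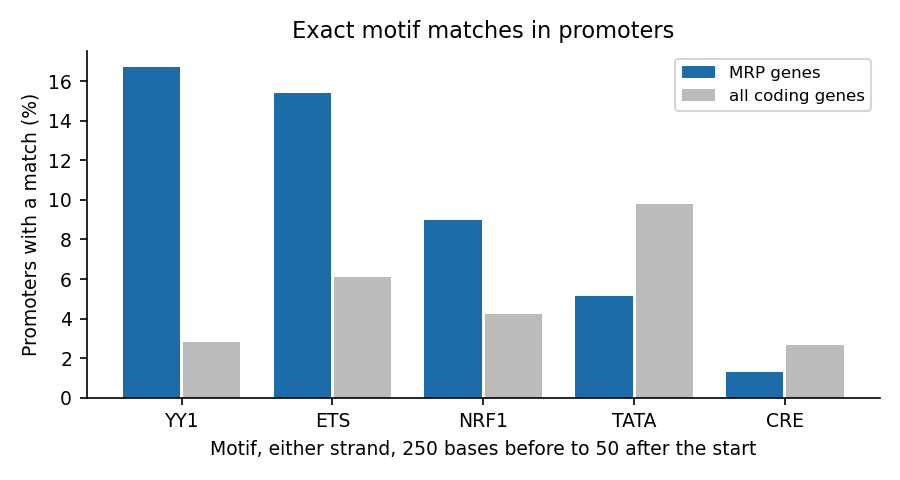
Share of promoters (percent) with an exact match to each motif on either strand, from 250 bp before to 50 bp after the canonical start, in MRP genes and in all protein-coding genes. The YY1 motif has the widest gap, 16.7% against 2.82%.

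The other genes of mitochondrial translation were counted in the same way, from lists of textbook members, and are read beside the shares of all protein-coding genes (21.7% goat antibody, 7.79% mouse antibody and 0.784% ChIP-seq). Of 13 translation factors of mitochondria, 5 (38.5%, 17.7% to 64.5%) had a goat antibody peak, the strongest at GFM2 (fold enrichment 6.30), which acts in ribosome recycling, and none had a mouse antibody or ChIP-seq peak. Their median length is 25.3 kb, and none of the shares in this paragraph was weighted for length. Of 22 genes of mitochondrial aminoacyl-tRNA synthesis, 9 (40.9%, 23.3% to 61.3%) had a goat antibody peak, led by WARS2 (6.28), the tryptophanyl-tRNA synthetase. These genes are longer, with a median of 35.6 kb, and the goat antibody share of other protein-coding genes was 20.2% from 20 to 50 kb and 32.2% from 50 kb. Of 25 assembly factors of the mitochondrial ribosome (median length 16.1 kb), 5 (8.86% to 39.1%) had a goat antibody peak, including METTL15 (7.52), a ribosomal RNA methyltransferase. METTL15 spans 419 kb and had 3 goat antibody peaks. GTPBP10 alone had a mouse antibody peak (3.86). Of 21 genes of mitochondrial transcription and RNA handling, 2 (9.52%, 2.65% to 28.9%) had a goat antibody peak (MTPAP and PRORP), 2 a mouse antibody peak (PRORP and TEFM) and 1 a ChIP-seq peak (PTCD1). The 5 mitochondrial ribosomal proteins with other symbols had no peak in any list. The lists hold 87 names, of which 1 had no match in the annotation under that symbol.

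The 59 MRP genes without a peak in any list included core proteins of both subunits. They were MRPL1, MRPL3, MRPL4, MRPL9, MRPL10, MRPL11, MRPL13, MRPL14, MRPL15, MRPL17, MRPL18, MRPL19, MRPL20, MRPL21, MRPL23, MRPL24, MRPL27, MRPL28, MRPL30, MRPL32, MRPL33, MRPL35, MRPL36, MRPL37, MRPL38, MRPL39, MRPL40, MRPL41, MRPL44, MRPL45, MRPL46, MRPL47, MRPL48, MRPL50, MRPL52, MRPL53, MRPL55, MRPL57 and MRPL58 of the large subunit symbols, and MRPS2, MRPS5, MRPS6, MRPS7, MRPS9, MRPS10, MRPS11, MRPS12, MRPS14, MRPS16, MRPS17, MRPS18A, MRPS21, MRPS24, MRPS25, MRPS26, MRPS30, MRPS31, MRPS33 and MRPS36 of the small subunit symbols. MRPS36 keeps its symbol although its product is known as a component of the oxoglutarate dehydrogenase complex. MRPL20 and MRPS16 had goat antibody peaks (fold enrichments 6.63 and 5.05) that came within 2 kb but not within 1 kb. Since the depth is unknown, absence from a list says that no peak was called there and not that Elongin A was absent.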

How the data were processed

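Before deposit, the authors mapped read pairs to hg19 (Bowtie2), dropped PCR duplicates and ran MACS2 with default settings against IgG or input. The deposited fold enrichment is the ratio of signal to local control background at the summit, the deposited −log10 q-value is that of MACS2, and the deposited score, a multiple of the −log10 q-value, was not used. Whether the goat antibody replicates were pooled before calling is not given in the sources used here.

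Genes and starts came from GENCODE release 44 lifted to GRCh37, which matches hg19 in chromosome names and lengths, and so did the promoter sequence. Peaks were joined to genes with 1 kb either side at an overlap of at least 1 bp. Shares of other genes were weighted to the MRP genes over 5 length classes (limits 5, 10, 20 and 50 kb). No test was run over genes. The mouse antibody peaks of the aminoacyl-tRNA synthesis list are not reported here. Counting was tested on simulated data. The text names MRP genes with a ChIP-seq peak or both CUT&RUN peaks, the 10 highest by goat and 5 highest by mouse fold enrichment, those with the most goat antibody peaks and those with none. The other goat antibody genes, the ChIP-seq promoters shown and the genes named from other lists were chosen after their values were seen. Sequence was planned for up to 6 genes with a goat antibody summit in the promoter window. The members and lists were chosen with earlier results of these data known. Analyses ran in Python 3.11.15 with pandas 2.3.3, scipy 1.17.1, pysam 0.24.0 and matplotlib 3.10.9.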

Additional observations from a re-analysis of the deposited data

How the results depend on the processing

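Of 81 alternative values, 57 were labelled as within the interval of the value as reported. This count mixes unlike measures. It includes length-weighted shares of other genes and median fold enrichments, for which no interval is given above. The length-weighted goat antibody share of other genes became 13.8% without flanks, 18.4% with 2 kb, 16.1% at q under 0.01, 14.1% at q under 0.001, 7.02% at a fold enrichment of at least 5, 15.4% over canonical spans, 14.0% for genes alone in their windows and 18.0% unweighted between the 10th and 90th percentile of MRP lengths. The MRP share fell below it at q under 0.01 (15.4%), q under 0.001 (11.5%), alone (11.1%) and unweighted (17.9%), so the sign of the small difference depends on these choices, and it was above at 14.1% without flanks, 20.5% with 2 kb, 7.69% at a fold enrichment of at least 5 and 16.7% over canonical spans. The mouse antibody share of other genes became 4.34% without flanks, 6.50% with 2 kb, 4.94% and 3.29% at the stricter q-values, 1.87% at a fold enrichment of at least 5, 5.16% over canonical spans and 5.32% alone, where MRP genes had 3.85% without flanks, 6.41% with 2 kb, 6.41% and 5.13% at the stricter q-values, 2.56% at a fold enrichment of at least 5, 6.41% over canonical spans and 0.00% alone. The ChIP-seq share of other genes alone was 0.509%. Goat antibody promoter peaks fell to 5.13% of MRP genes with canonical starts and to 5.13% at a fold enrichment of at least 5, and genes with both antibodies to 0.00% at that limit and 0.00% alone. TATAAA reached 15.4% of MRP promoters and 18.8% of all promoters from 500 bp before to 100 bp after the start. The causes were not tested. No paired analysis was possible because each antibody has 1 list, and for the same reason no replicate could be left out. The unknown depth limits what an absent peak means.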
